A study of Homo sapiens with 8 samples.

Results

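Transcripts of 10 cytokine genes were followed in LX-2 cells, an immortalized human hepatic stellate cell (HSC) line, on soft or stiff matrix. The genes were chosen by name, with earlier results of these data known. They were IL6, LIF and IL11 of the IL-6 family, IL1A, IL1B and IL33 of the IL-1 family, and IL32, IL7, IL15 and CSF1. All 10 are among the 25369 genes of the deposited count and FPKM tables (FPKM is the fragment count scaled to gene length and sequencing depth), and 9 were among the 14570 genes with enough reads to test. IL7 had too few counts. The cells were wild type and were cultured on fibronectin-coated polyacrylamide hydrogels. The soft matrix had a stiffness of about 2 kPa and the stiff matrix of about 40 kPa, and RNA was taken after 2 or 4 days. Each of the 4 conditions had 2 libraries, which the study describes as independent experiments. LX-2 is a single line of already activated stellate cells and was cultured without the other cells of the liver.

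HSCs store retinoids in the healthy liver and become matrix-producing myofibroblasts during fibrosis, when they also release cytokines that act on immune cells, hepatocytes and themselves. IL-6, LIF and IL-11 each bind a receptor of their own and then signal through the shared subunit gp130 (IL6ST) to JAK kinases and STAT3, which SOCS3 restrains. IL-1α and IL-1β bind IL1R1 with IL1RAP and signal through MYD88 and IRAK kinases to NF-kB, whereas IL-33 uses the receptor IL1RL1. IL-7 and IL-15 signal to lymphocytes through the common gamma chain (IL2RG), and M-CSF, the product of CSF1, sustains macrophages through CSF1R.

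The libraries held 19955975 to 27263935 counts, so that 1 CPM (the unit of counts scaled to the TMM-adjusted library size) was 17.4 to 28.4 counts. Both libraries of the stiff matrix at 4 days stood apart from each other, with a median absolute log2 ratio between replicates of 0.467 over the tested genes, against 0.0942 to 0.207 in the other 3 conditions. Of 15 stellate cell and myofibroblast markers, 1 to 3 had no count in a condition, and the summed level of the list was 3743 to 4601 CPM at 2 days and 6083 to 8678 CPM at 4 days. The stellate markers LRAT and DES had at most 2 counts in any library, although COL1A1, VIM and SPARC were abundant. Of 12 macrophage and other leukocyte markers, 4 or 5 had no count in a condition, among them CD163, CD3E and TYROBP in all 8 libraries, and 8 were under 1 CPM. The sum of that list was 111 to 126 CPM at 2 days and 149 to 166 CPM at 4 days, most of it CD68 and LAPTM5. Hepatocyte markers summed to 4.45 to 10.6 CPM, endothelial markers to 49.3 to 81.4 CPM and cholangiocyte markers to 32.2 to 71.2 CPM. In bulk RNA, fewer cells that express a gene and less RNA per cell cannot be told apart.

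The levels of the genes, compared per gene length as the mean FPKM of the 2 libraries, ran from IL32 at the top to IL7 or IL33 at the bottom. On the soft matrix at 2 days IL32, a cytokine that induces other inflammatory cytokines, was at 62.1 FPKM, IL1B at 32.2 and IL11 at 24.1. CSF1 followed at 6.98 FPKM, LIF at 2.87, IL6 at 2.22 and IL15 at 1.43. IL1A (0.450 FPKM), IL33 (0.277) and IL7 (0.111) came last, and no neighbours in this order overlapped between libraries. On the stiff matrix at 2 days IL11 (29.6 FPKM) stood above IL1B (14.5 FPKM), the reverse of their order on the soft matrix. With stiff matrix and 4 days the libraries of IL11 (24.4 FPKM) and IL1B (24.1) overlapped. In the lower part of the order the libraries of IL15 and IL6 and those of IL33, IL1A and IL7 overlapped at 2 days (stiff), those of IL33 and IL7 at 4 days (soft), and those of IL6 and LIF at 4 days (stiff). IL6 itself was thus a low-level transcript at 0.885 to 3.63 FPKM by condition, and IL32 was highest in each of the 4 conditions by its mean.

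**Figure D1:**
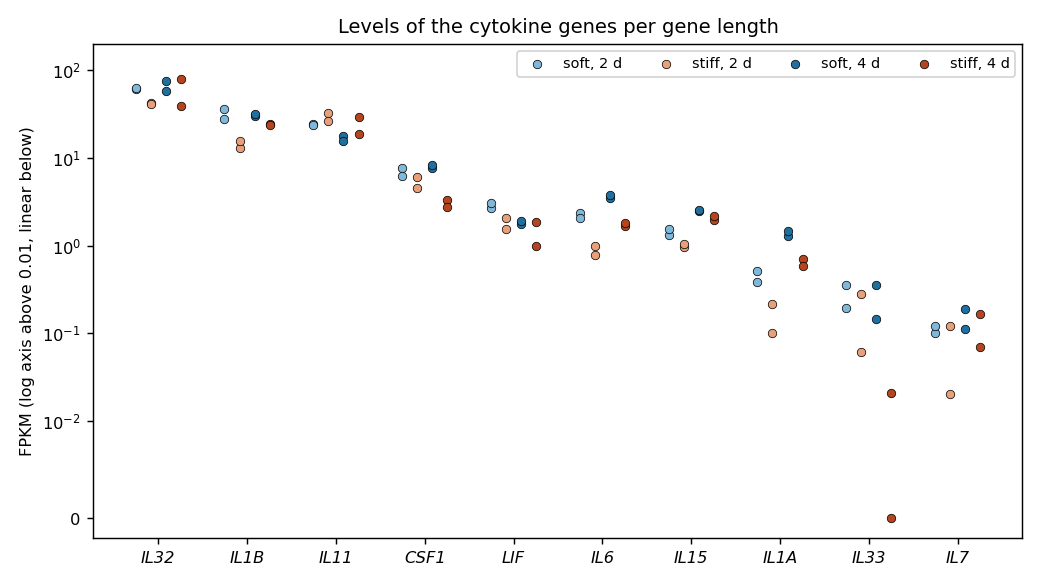
FPKM of each of the 10 cytokine genes (italic names, ordered by their level on the soft matrix at 2 days) in each of the 8 libraries, 1 point per library, on an axis that is logarithmic above 0.01 and linear below. IL32, IL1B and IL11 lie above 10 FPKM in every condition, and IL33 reaches 0 in 1 library of the stiff matrix at 4 days.

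The DNA just upstream of these genes is shown for IL6, IL11, IL1A and IL1B, the tested members of the IL-6 and IL-1 families that hold a searched motif there. RefSeq entries on GRCh38.p14 were found for 6 of the 10 genes, not for LIF, IL7, IL15 and CSF1. The 250 bases before the start were searched on both strands for the AP-1 motif TGANTCA, the STAT palindrome TTCNNNGAA and the NF-kB consensus. Of 35116 upstream sequences of the same length, 6.57% held the AP-1 motif, 6.57% the STAT palindrome and 5.21% the NF-kB consensus. Capitals mark the matches in the runs below, written 5′ to 3′ on the strand of the gene. They lie at chr7:22726950-22727199 (+ strand) for IL6, chr19:55370464-55370713 (- strand) for IL11, chr2:112784401-112784650 (- strand) for the downstream of the 2 starts of IL1A, and chr2:112836780-112837029 (- strand) for IL1B.
IL6: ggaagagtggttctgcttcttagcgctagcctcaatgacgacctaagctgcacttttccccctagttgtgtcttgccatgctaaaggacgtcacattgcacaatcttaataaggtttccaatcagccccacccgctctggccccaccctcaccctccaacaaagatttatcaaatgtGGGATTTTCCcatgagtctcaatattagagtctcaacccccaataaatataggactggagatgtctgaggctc
IL11: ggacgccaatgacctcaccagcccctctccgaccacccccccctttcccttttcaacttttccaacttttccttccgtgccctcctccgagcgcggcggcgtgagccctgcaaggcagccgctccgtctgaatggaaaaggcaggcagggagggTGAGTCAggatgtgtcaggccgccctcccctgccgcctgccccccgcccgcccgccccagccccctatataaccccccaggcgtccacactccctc
IL1A: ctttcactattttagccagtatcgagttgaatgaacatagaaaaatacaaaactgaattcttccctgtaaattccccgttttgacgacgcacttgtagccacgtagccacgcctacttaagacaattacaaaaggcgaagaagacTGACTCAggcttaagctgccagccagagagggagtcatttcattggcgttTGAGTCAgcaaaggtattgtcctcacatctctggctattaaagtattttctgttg
IL1B: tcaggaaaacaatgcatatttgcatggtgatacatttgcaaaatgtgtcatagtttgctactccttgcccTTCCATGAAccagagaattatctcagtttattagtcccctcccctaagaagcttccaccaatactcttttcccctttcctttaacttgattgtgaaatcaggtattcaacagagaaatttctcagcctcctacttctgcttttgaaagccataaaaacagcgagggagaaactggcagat
IL6 holds the NF-kB consensus GGGATTTTCC at 73 to 64 bases before the start. IL11 holds the AP-1 motif TGAGTCA at 96 to 90 bases, and IL1A holds TGACTCA at 105 to 99 bases and TGAGTCA at 55 to 49 bases. IL1B holds the STAT palindrome TTCCATGAA at 180 to 172 bases. The first of 2 starts of IL32 had the NF-kB consensus on both strands in a pair of overlapping matches at 99 to 89 bases, and neither start of IL33 nor the second start of IL32 had any of the 3 motifs. These are matches of letters in a window and not measurements of binding.

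The first question was whether cytokine transcripts differ between stiff and soft matrix. Averaged over both days, IL6, IL1B and CSF1 fell on the stiff matrix, by 2.28-fold, 1.70-fold and 1.87-fold. By the fitted difference 8 of the 9 tested genes were lower on the stiff matrix on either day and in the average, and IL11, a fibrosis-associated cytokine of the IL-6 family, was higher. At 4 days alone CSF1 fell by 2.66-fold, and at 2 days alone no gene of the 9 passed.

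IL6 (chromosome 7, 22765503 to 22771621, + strand, GRCh37), a main inducer of the hepatic acute-phase response, had 80 and 68 counts in the soft libraries at 2 days (2.82 and 2.45 CPM) and 22 and 28 in the stiff libraries (0.924 and 1.17 CPM). At 4 days the soft libraries had 89 and 101 counts (4.15 and 4.55 CPM) and the stiff libraries 41 and 38 (2.01 and 2.19 CPM). The stiff libraries lay below the soft ones on both days. The log2 fold change was -1.32 (SE 0.25) at 2 days and -1.05 (SE 0.23) at 4 days, and -1.19 (SE 0.17) on average, which passed (edgeR quasi-likelihood test, Benjamini-Hochberg adjusted p = 0.0387). At the single days the adjusted p was 0.545 and 0.208. An exon of STEAP1B on the opposite strand shares 46 bases with IL6 and had 0 to 7 counts, and the antisense gene IL6-AS1 shares 428 bases and is not listed in the table.

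LIF (chromosome 22, 30636442 to 30642748, - strand), which acts through LIFR and gp130, had 10.7 and 12.1 CPM in the soft libraries at 2 days and 6.09 and 8.13 CPM in the stiff ones. At 4 days the soft libraries had 7.14 and 7.76 CPM and the stiff libraries 7.37 and 3.97 CPM. The groups were apart at 2 days and overlapped at 4 days. The average log2 fold change of -0.53 (SE 0.20) had an adjusted p of 0.531, with a 95% interval of -1.0 to -0.07.

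IL11 (chromosome 19, 55875750 to 55881831, - strand) had 58.3 and 56.6 CPM in the soft libraries at 2 days and 77.5 and 63.5 CPM in the stiff ones. Later, at 4 days, the soft libraries had 42.5 and 37.7 CPM and the stiff libraries 45.5 and 71.7 CPM. Both stiff libraries were above both soft libraries on each day, the reverse of IL6. The share of all genes separated in this direction was not counted, so the separation adds no support. The average log2 fold change was 0.42 (SE 0.16), which did not pass (adjusted p = 0.514), with a 95% interval of 0.06 to 0.78.

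IL1A (chromosome 2, 113531502 to 113542070, - strand), which is active without cleavage and is released from damaged cells, had 32 and 42 counts in the soft libraries at 2 days and 7 and 15 in the stiff ones. Counts at 4 days were 81 and 98 (soft) against 42 and 30 (stiff). The stiff libraries were lower on both days, with a CPM ratio of stiff to soft of 0.350 at 2 days (95% interval 0.207 to 0.570) and 0.465 at 4 days (0.349 to 0.615). These are exact intervals on summed counts, which cover counting error only. The average log2 fold change of -1.31 (SE 0.25) was steeper than that of IL6 in value but missed the threshold by edgeR (adjusted p = 0.114), while DESeq2 called it (adjusted p = 0.00759).

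IL1B (chromosome 2, 113587328 to 113594393, - strand), whose product needs cleavage by caspase-1, had 42.4 and 54.1 CPM in the soft libraries at 2 days and 19.7 and 23.7 CPM in the stiff ones. After 4 days the soft libraries had 45.7 and 48.8 CPM and the stiff libraries 36.6 and 36.3 CPM. The groups did not overlap on either day. The log2 fold change was -1.15 (SE 0.17) at 2 days and -0.37 (SE 0.16) at 4 days. On average it was -0.76 (SE 0.12), and IL1B fell (adjusted p = 0.0474), while neither single day passed (adjusted p = 0.334 and 0.736). No gene had a smaller adjusted p than IL1B in the comparison at 2 days.

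IL33 (chromosome 9, 6215786 to 6257983, + strand), a nuclear alarmin, was near the lower limit of the counts. It had 15 and 27 counts in the soft libraries at 2 days and 4 and 18 in the stiff ones, which overlapped. Counts at 4 days were 21 and 9 on the soft matrix against 0 and 1 on the stiff one. The summed counts at 4 days, 1 against 30, gave a ratio of stiff to soft of 0.0385 with an exact 95% interval of 0.000944 to 0.232. At 2 days the ratio was 0.617 (0.351 to 1.06). Both intervals cover counting error only and not the spread between the libraries. The test did not call the gene at 4 days (adjusted p = 0.427). IL33 passed the count filter through its soft libraries, so its test is not used as support.

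IL32 (chromosome 16, 3115298 to 3132193, + strand) had 74.0 and 74.3 CPM in the soft libraries at 2 days and 51.0 and 48.8 CPM in the stiff ones, with no overlap. After 4 days the soft libraries had 90.8 and 71.6 CPM and the stiff libraries 46.6 and 95.7 CPM. The stiff libraries of 4 days were thus the lowest and the highest of that day. The log2 fold change was -0.57 (SE 0.30, adjusted p = 1.0) at 2 days and -0.19 (SE 0.30, adjusted p = 0.917) at 4 days. Without replicate 1 of the stiff matrix at 4 days the latter was 0.25, a change of direction.

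IL15 (chromosome 4, 142557736 to 142655140, + strand), a survival factor of natural killer and memory T cells, had 3.70 and 4.35 CPM in the soft libraries at 2 days and 2.73 and 2.93 CPM in the stiff ones. After 4 days the soft libraries had 7.0 and 7.26 CPM and the stiff libraries 5.55 and 6.22 CPM. The stiff libraries were lower on both days by a small margin. The average log2 fold change was -0.39 (SE 0.13) with an adjusted p of 0.442.

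CSF1 (chromosome 1, 110452864 to 110473614, + strand) had 37.8 and 30.9 CPM in the soft libraries at 2 days and 22.5 and 29.9 CPM in the stiff ones. The libraries of 4 days had 37.9 and 42.3 CPM (soft) and 16.4 and 13.8 CPM (stiff). The gap between the groups was narrow at 2 days and wide at 4 days. The log2 fold change was -0.39 (SE 0.19, adjusted p = 1.0) at 2 days, -1.41 (SE 0.20, adjusted p = 0.0418) at 4 days and -0.90 (SE 0.14, adjusted p = 0.0427) on average.

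IL7, which supports the growth of lymphocytes, had 1 to 9 counts per library and was not tested. Its exons share 322 bases with ZC2HC1A on the opposite strand, which had 164 to 273 counts. The ratio of stiff to soft was 0.634 at 2 days (exact 95% interval 0.214 to 1.71) and 0.743 at 4 days (0.284 to 1.84), so that a difference was not detectable at this depth.

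**Figure D2:**
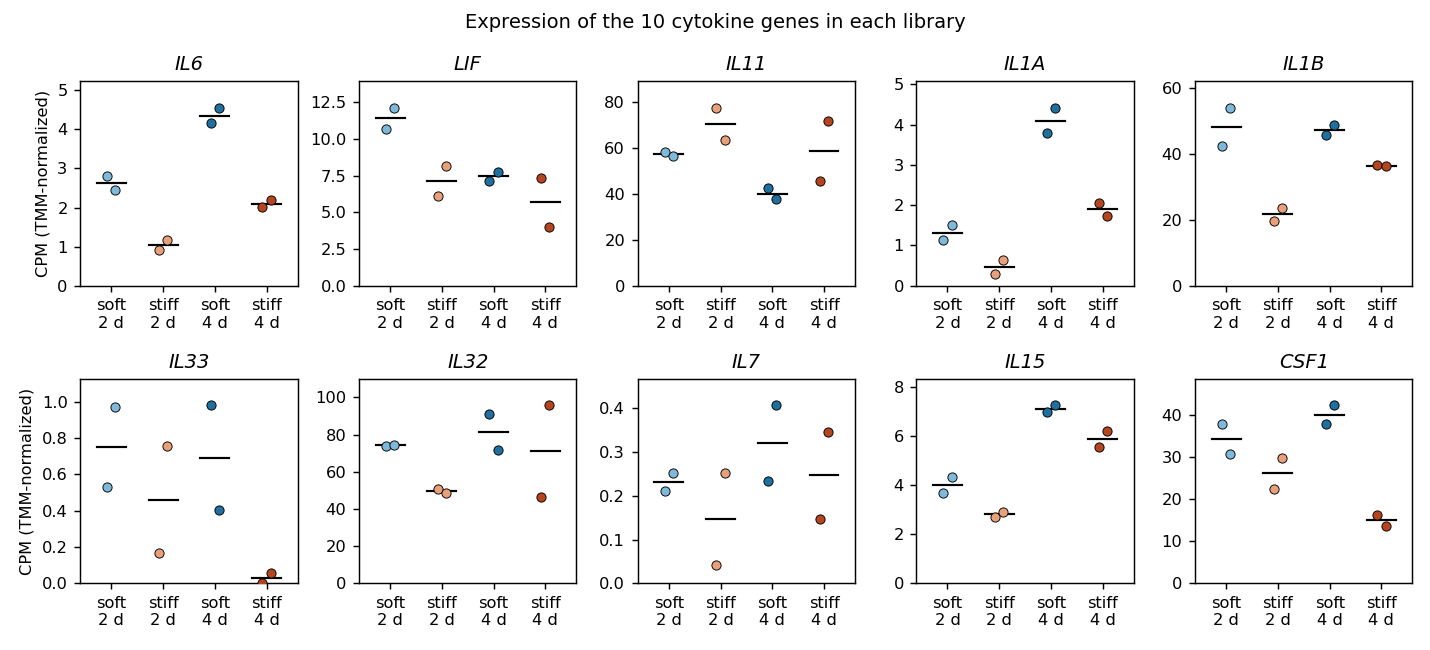
CPM (TMM-normalized, linear axes from 0, 1 scale per gene) of the 10 cytokine genes in the 8 libraries, with points for the 2 libraries of a condition and a black line at their mean. The stiff libraries of IL6 (0.924 to 2.19 CPM) lie below the soft libraries of the same day, whereas those of IL11 lie above.

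Set beside all genes, the members' counts were as follows. The members were chosen with earlier results of these data known, so a share above that of all genes is not an independent test. At 2 days edgeR called 0 of 9 members and 0% of the 14570 genes, and 5 of 9 members had an unadjusted p below 0.05 against 2.82% of all genes. DESeq2 called 1 member, IL1B, and 0.192% of all genes. At 4 days 1 of 9 members was called against 0.247% of all genes, and 5 of 9 were below the unadjusted threshold against 6.93%. For the average of both days 3 of 9 members were called against 0.426%, and 8 of 9 were below the unadjusted threshold against 7.70%. IL33 is among these 8 and among the 5 at 4 days, and it also enters the medians and separations below. It passed the count filter through its soft libraries, so it is not used as support. The median log2 fold change of the 9 members was -0.68 at 2 days, -0.39 at 4 days and -0.76 on average, whereas the median of all genes was 0.01, 0.02 and 0.02. Both stiff libraries were below both soft libraries for 7 of 9 members at 2 days (22.4% of all genes), for 6 of 9 at 4 days (14.0%) and for 5 of 9 on both days (6.14%), namely IL6, IL1A, IL1B, IL15 and CSF1.

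The calls for the average were close to the threshold. In each of the 6 fits without 1 library of the other 3 conditions none of the 3 was called, with adjusted p of up to 0.301 for IL6, 0.372 for IL1B and 0.305 for CSF1, although their log2 fold changes stayed between -1.28 and -1.11, between -0.85 and -0.67, and between -1.01 and -0.81 in all 8 such fits. Without replicate 1 of the stiff matrix at 4 days 6 of 9 members were called, together with 19.8% of all genes, and without replicate 2 also 6 of 9, with 6.83% of all genes.

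**Figure D3:**
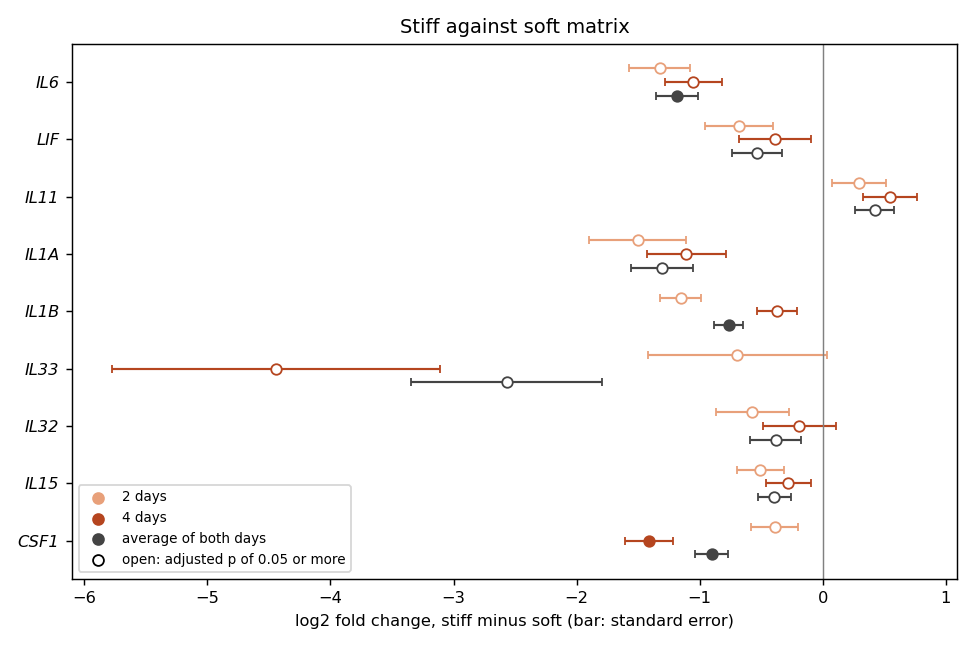
Log2 fold change of stiff against soft matrix for the 9 tested cytokine genes at 2 days, at 4 days and averaged over both days, with bars of 1 standard error and filled points for an adjusted p under 0.05. Of the points, those of IL6, IL1B and CSF1 on average and of CSF1 at 4 days are filled, and the points of IL11 alone lie right of 0.

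The second question was how the transcripts moved from 2 to 4 days of culture. IL1A, IL15 and IL6 rose on both matrices, IL1B rose and CSF1 fell on the stiff matrix, and no gene of the 9 was called lower on the soft matrix. The summed stellate, leukocyte and cholangiocyte markers were also higher at 4 than at 2 days (cholangiocyte 32.2 to 37 CPM, then 50.7 to 71.2 CPM), and the endothelial sum was lower (71.5 to 81.4 CPM, then 49.3 to 58.3 CPM). These sums followed a few genes each and do not measure the share of a cell type. On the soft matrix the mean of VIM rose from 2016 to 4370 CPM while that of COL1A1 fell from 952 to 686 CPM. There SOX9 rose from 19.4 to 52.8 CPM while KRT7 had 14.8 and then 13.7 CPM. TIE1, at 73.7 and then 50.1 CPM, made up most of the endothelial sum. The part of these markers in the changes of the members was not tested.

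IL1A showed the steepest of the called rises among the members, by 3.10-fold on the soft matrix (1.13 and 1.51 CPM at 2 days, 3.78 and 4.42 CPM at 4 days; adjusted p = 0.0103) and by 4.08-fold on the stiff matrix (0.294 and 0.628 CPM, then 2.06 and 1.73 CPM; adjusted p = 0.010). Its levels at 4 days on the stiff matrix were above both libraries of the soft matrix at 2 days. IL15 rose by 1.77-fold on the soft (adjusted p = 0.0154) and by 2.07-fold on the stiff gel (adjusted p = 0.00803). IL6 rose by 1.65-fold (adjusted p = 0.0452) and by 2.00-fold (adjusted p = 0.0265). The call of IL6 on the soft matrix was lost with DESeq2 (adjusted p = 0.0905), without scaling factors (0.0678), without the filter (0.0610) and with the replicate block (0.0882). For these 3 genes the libraries of 4 days lay above those of 2 days on either matrix. The share of all genes separated in this way was not counted, so the separation adds no support to the calls.

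IL1B and CSF1 were called on 1 of the matrices. On the stiff matrix IL1B rose by 1.68-fold (adjusted p = 0.0158), and on the soft matrix its log2 fold change was -0.03 (SE 0.16, 95% interval -0.41 to 0.35). CSF1 fell by 1.74-fold on the stiff matrix (adjusted p = 0.0212), and on the soft matrix its log2 fold change was 0.22 (SE 0.19, 95% interval -0.21 to 0.66).

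LIF and IL11 had lower values at 4 days. Both soft libraries of 4 days were below both of 2 days for each of these genes, with log2 fold changes of -0.61 (SE 0.28, adjusted p = 0.139) and -0.52 (SE 0.22, adjusted p = 0.115). The share of all genes with such a separation was not counted. On the stiff matrix their libraries overlapped between the days. IL33 had a log2 fold change of -0.12 (SE 0.70) on the soft and -3.87 (SE 1.41, adjusted p = 0.0777) on the stiff matrix, the latter from 22 against 1 counts. IL32 had 0.13 (SE 0.30) and 0.51 (SE 0.30), and its libraries of 4 days enclosed those of 2 days on either matrix.

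These calls have to be read against a large share of the transcriptome, since 27.4% of all genes were called between the days on soft gels and 27.6% on stiff gels. Of the 9 members, 3 were called on the soft and 5 on the stiff matrix. Without replicate 1 of the stiff matrix at 2 days none of the 5 was called and without replicate 2 only IL1A was, and on the soft matrix none was called without any 1 of its 4 libraries. A fit of the 4 stiff libraries alone called none of the 14069 genes it tested by edgeR, so the lack of calls is not particular to the members. In that fit 5 of 8 tested members had an unadjusted p below 0.05, beside 4188 of the 14069 genes.

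**Figure D4:**
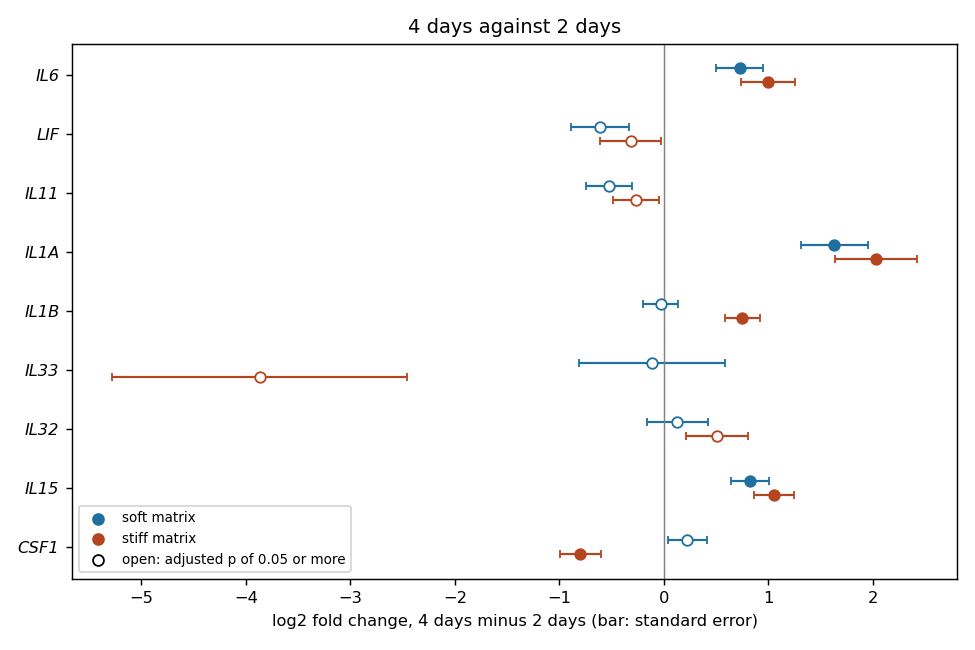
Log2 fold change of 4 against 2 days for the 9 tested cytokine genes on the soft and the stiff matrix, with bars of 1 standard error and filled points for an adjusted p under 0.05. IL6, IL1A and IL15 are filled and right of 0 on both matrices, and CSF1 is filled and left of 0 on the stiff matrix.

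Whether the effect of stiffness differed between the days was tested as an interaction. No member was called by edgeR, nor was any other gene (0% of all genes), and DESeq2 called no member. IL1B and CSF1, 2 of the 9 members, had an unadjusted p below 0.05, against 1.95% of all genes. For CSF1 the stiffness effect was larger at 4 days by a log2 difference of -1.02 (SE 0.27, adjusted p = 1.0). For IL1B the difference was 0.78 (SE 0.23, adjusted p = 1.0), with an effect nearer 0 at 4 days. The difference between the days is therefore given as a value for both genes. Without replicate 1 of the stiff matrix at 4 days 4 members were called, namely IL11, IL1B, IL32 and CSF1, but so were 20.9% of all genes. Without replicate 2 no member and 0.0799% of all genes were called by edgeR, with 4 members at an unadjusted p below 0.05.

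The genes whose pattern over the 8 libraries was most like that of a member were named by the smallest root-mean-square difference in centred log2 CPM, for members with an SD of at least 0.5 log2. ICAM1, an adhesion molecule for leukocytes, was nearest to IL6 at 0.197, with 26.7 and 11.7 CPM on soft and stiff matrix at 2 days and 55.5 and 20.5 CPM at 4 days. XAF1 came next at 0.251. The histamine-degrading enzyme HNMT was nearest to IL1A at 0.245, followed by XAF1 at 0.353. TINAGL1 (0.192) and the glycolytic enzyme ALDOC (0.206) were nearest to IL1B, CYTL1 (0.0934) and LRRC17 (0.112) to IL15, and the transcription factors ETV1 (0.178) and IRF1 (0.195) to CSF1. The levels of IRF1 were 37.9 (soft) and 23.9 CPM (stiff) at 2 days and 38.5 and 17.8 CPM at 4 days. CSF2 (0.520) and CXCL3 (0.594) were nearest to the sparse counts of IL33. Among members the closest pair was IL6 and IL1B at 0.359. LIF, IL11 and IL32 varied by less than that SD and were given no neighbours.

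The remaining ligands, receptors and downstream genes of these pathways were counted by list. On stiff against soft matrix, averaged over both days, none of 2 tested further IL-6 family ligands, 6 receptors of that family, 15 genes downstream of gp130, 10 IL-1 family receptors and adaptors, 11 genes of IL-1 processing and 6 receptors of IL-7, IL-15 and M-CSF was called, and neither was any at 2 or at 4 days. Of these 50 genes edgeR gave 13 an unadjusted p below 0.05 on average (8 at 2 days, 10 at 4 days). Of all genes 7.70% had one on average, 2.82% at 2 days and 6.93% at 4 days. AIM2, IL2RG and CRLF2 are among the 13 on average. They passed the count filter through their soft libraries, so they are not used as support. DESeq2 called 5 of the 50 on average (JUNB, CEBPD, IRAK2, CASP1 and AIM2), 0 at 2 days and 2 at 4 days (IRAK2 and CASP1). Of all genes it called 1.49%, 0.192% and 1.05%. The lists, too, were chosen with earlier results of these data known. Of 11 tested genes among 38 other cytokines, 2 were called, CSF2 and CSF3, beside 0.426% of all genes. CSF3 had passed the count filter through its soft libraries.

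CSF2, which encodes GM-CSF, had 292 and 338 counts in the soft libraries at 2 days and 85 and 121 in the stiff ones, and 180 and 162 against 30 and 37 at 4 days. The stiff libraries were far below the soft libraries on both days, and CSF2 fell with a log2 fold change of -2.13 (SE 0.27, adjusted p = 0.0331) at 4 days and -1.75 (SE 0.18, adjusted p = 0.0117) on average. CSF3, which encodes G-CSF, had 45 and 53 counts on the soft and 5 and 12 on the stiff matrix at 2 days, and 42 and 42 against 3 and 6 at 4 days. CSF3 passed the count filter through its soft libraries, where it is high, so its call is not used as support and its counts alone are given. CSF1 and CSF2, which sustain different myeloid lineages, thus both fell on average. The call of CSF2 at 4 days held in 7 of 10 other settings and in 2 of 8 fits without 1 library (adjusted p of up to 0.258). In fits without 1 library the average log2 fold change of CSF2 ranged from -1.89 to -1.62, but its call was lost in most of them.

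Of the receptors of the IL-6 family, IL6ST had 3437 to 9802 counts per library, OSMR 1058 to 3061, LIFR 841 to 1737, IL27RA 122 to 316, IL11RA 34 to 113 and IL6R 24 to 87. Their log2 fold changes on average were -0.07 for IL6ST, -0.02 for OSMR, 0.13 for LIFR, -0.34 for IL11RA and 0.23 for IL6R, with adjusted p of 0.864 to 0.993. IL27RA, a receptor chain for IL-27, had the smallest p of the list, with a log2 fold change of -0.51 (SE 0.11, adjusted p = 0.155) on average, -0.50 at 2 days and -0.53 at 4 days. CNTFR had 0 or 1 count per library. The ligand CTF1 had a log2 fold change of 0.21 (adjusted p = 0.926) and CLCF1 of -0.10 (adjusted p = 0.928). OSM, CNTF and IL27 had at most 1 count in a library.

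Downstream of gp130, 13 of 15 genes were lower on the stiff matrix by the average, and the list's median was -0.10 against 0.02 for all genes. CEBPD, an acute-phase transcription factor, had the smallest p of the list with a log2 fold change of -0.90 (SE 0.15, adjusted p = 0.0572), followed by the AP-1 subunit JUNB at -0.51 (SE 0.11, adjusted p = 0.156). The feedback inhibitor SOCS3 had -0.04 (SE 0.10, adjusted p = 0.982) on average, from 0.29 (SE 0.14, adjusted p = 1.0) at 2 days and -0.36 (SE 0.14, adjusted p = 0.636) at 4 days. The difference between the days for SOCS3 was -0.66 (SE 0.20), with an unadjusted p of 0.0104 and an adjusted p of 1.0. From 2 to 4 days 4 of 15 genes of the list fell on soft gels and 6 of 15 on stiff gels, and none rose, where 13.3% and 13.7% of all genes fell. TYK2, SOCS1, BCL3 and CEBPB fell on both, with log2 fold changes of -1.04, -1.48, -0.88 and -1.27 on the soft matrix. SOCS3 (-0.87, adjusted p = 0.00557) and PIAS3 (-0.70, adjusted p = 0.0320) fell on the stiff matrix.

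Of the IL-1 pathway, IL1R1 had 142 to 578 counts per library, while the antagonist IL1RN had 1 count in 1 library and the IL-33 receptor IL1RL1 had 0 to 5 counts. IRAK2 had the smallest p of the receptor and adaptor list for stiffness, with an average log2 fold change of -0.65 (SE 0.11, adjusted p = 0.0676). In the processing list CASP1, the protease that matures IL-1β, had -1.53 (SE 0.28, adjusted p = 0.0845) and the DNA sensor AIM2 had -1.73 (SE 0.33, adjusted p = 0.111). AIM2 passed the count filter through its soft libraries, so its stiffness value is not used as support. CASP1 had 80 and 92 counts on the soft and 16 and 43 on the stiff matrix at 2 days, and 156 and 123 against 37 and 34 at 4 days, without overlap. The median of the processing list was -0.03, near that of all genes. Between the days IRAK4 rose (0.64) and IRAK1 (-0.89) and SIGIRR (-0.84) fell on soft gels, IRAK1 fell on stiff gels (-0.92), CASP8 rose on both (1.02 and 0.87), and AIM2 rose (1.75) and NLRP1 fell (-0.62) on the soft matrix. Of 10 receptor and adaptor genes, 1 was thus called higher and 2 lower on soft gels, and 1 lower on stiff gels. Of 11 processing genes, 2 were called higher and 1 lower on soft gels, and 1 higher on stiff gels. Of all genes 27.4% were called between the days on soft and 27.6% on stiff gels, so these counts are not particular to the pathway.

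Among the receptors of IL-7, IL-15 and M-CSF, IL7R was abundant at 2121 to 9112 counts per library and rose between the days, with log2 fold changes of 1.64 on the soft (adjusted p = 0.00536) and 1.92 on the stiff matrix (adjusted p = 0.00355). CSF1R, the receptor of M-CSF, had 6 to 53 counts and fell on both (-1.34 and -1.63, adjusted p = 0.0221 and 0.0203). IL15RA, which presents IL-15, fell over time on the stiff matrix (log2 fold change -1.22, adjusted p = 0.0324). CRLF2, a receptor chain for TSLP, fell there as well (log2 fold change -2.85, adjusted p = 0.0421), from 10 and 10 to 0 and 2 counts, a call that DESeq2 did not make. Of the 6 genes of this list, 1 rose and 1 fell on the soft matrix, and 1 rose and 3 fell on the stiff matrix. Of all genes 27.4% and 27.6% were called between the days. For stiffness this list had a median of -0.67 on average, with 5 of 6 genes lower and none called. IL2RG and CRLF2 are among these 5 and passed the count filter through their soft libraries. The median and the count of lower genes are therefore not used as support. IL2RG had 2 to 6 counts in the stiff and 10 to 36 in the soft libraries. It passed the filter through its soft libraries, so its test is not given.

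Of the other cytokines, 11 of 38 had no count in any library. IL18, a cytokine of the IL-1 family, had 0 and 1 counts on the soft and 0 and 0 on the stiff matrix at 2 days, and 21 and 27 on the soft and 13 and 20 on the stiff matrix at 4 days. It passed the count filter only through the libraries of 4 days, where it is high, so its test is not given. Summed over the libraries, IL18 had 48 counts at 4 days against 1 at 2 days on the soft matrix, and 33 against 0 on the stiff matrix. KITLG, the stem cell factor, rose on both matrices with log2 fold changes of 0.79 (adjusted p = 0.0490) and 1.08 (adjusted p = 0.0181). TNFSF10 had 9 and 1 counts at 2 days and 20 and 25 at 4 days on the soft matrix. It passed the filter only through these soft libraries of 4 days, and its test is not given either. CSF2 fell on the stiff matrix (-1.27, adjusted p = 0.0144). KITLG and CSF2 are from the 11 tested genes of this list, and 27.4% (soft) and 27.6% (stiff) of all genes were called between the days.

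**Figure D5:**
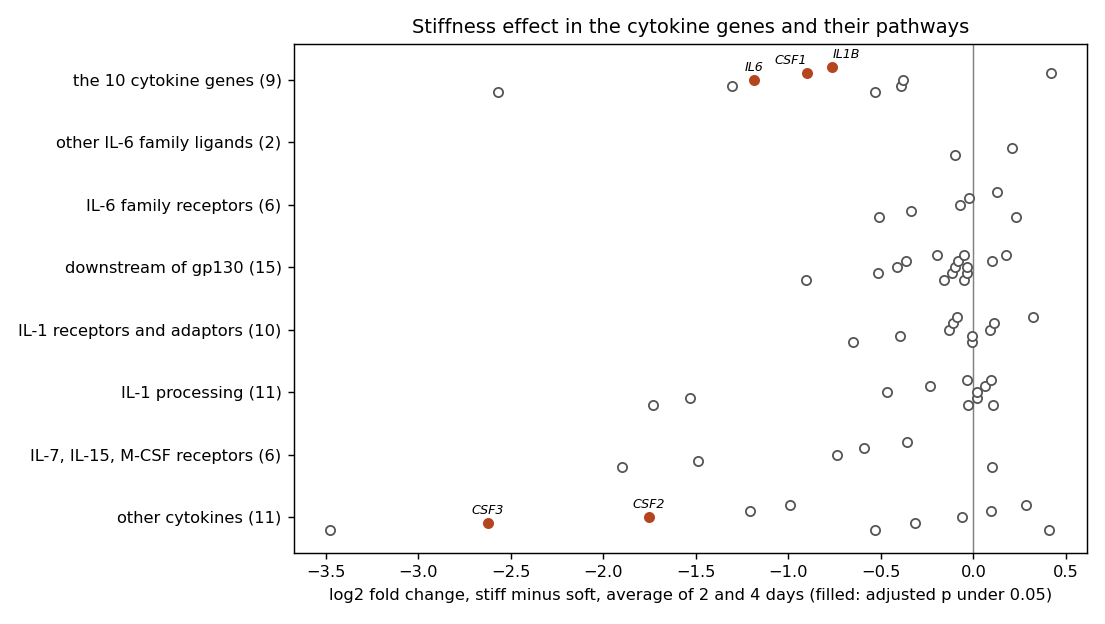
Log2 fold change of stiff against soft matrix, averaged over 2 and 4 days, for the tested genes (1 point each, number in brackets) of the 10 cytokine genes and of 7 lists of related genes, with filled points and names for an adjusted p under 0.05. The filled points are IL6, IL1B and CSF1 among the cytokine genes and CSF2 and CSF3 among the other cytokines. CSF3 passed the count filter through its soft libraries, and its call is not used as support.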

How the data were processed

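Libraries were made with the NEBNext Ultra RNA kit and sequenced as paired ends. The authors trimmed reads with Trim Galore, aligned them to hg19 with STAR 2.7.1a and deposited whole-number read counts per gene made with HTSeq. The annotation and strand setting are not given in the sources used here. The deposited FPKM values were made by the authors from the same counts: the ratio of count to FPKM differed between libraries by 1 constant factor per library for 15016 of 15016 genes with counts in every library (within 1e-09).

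Counts were fitted with edgeR 4.0.16 (R 4.3.3): filterByExpr, TMM factors and the quasi-likelihood test with the 4 conditions of 2 libraries in 1 fit, Benjamini-Hochberg adjustment over 14570 genes and a cutoff of 0.05. Contrasts were stiff minus soft at each day and averaged, 4 minus 2 days on each matrix, and their interaction. An exact permutation test of 2 against 2 libraries cannot go below 0.333. Levels are CPM, or FPKM where genes are compared. Alternatives were DESeq2 1.42.0, limma 3.58.1 on log2 FPKM, other scaling and filters, a separate fit, a replicate block and leaving out each library. The script was tested on simulated data.

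All 10 members are named. From each list the genes called (up to 6 per comparison) and up to 4 others by unadjusted p were eligible, and the levels of receptors and ligands were given after their values were seen. The members and lists were chosen with earlier results of these data known. Gene positions are from GENCODE on GRCh37, and upstream sequences from RefSeq on GRCh38.p14. Depth was 19955975 to 27263935 counts per library, and intervals on counts cover counting error only.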

Additional observations from a re-analysis of the deposited data

Results flagged for a closer look

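CSF1 moved in opposite directions over time on the 2 matrices. Both soft libraries of 4 days (37.9 and 42.3 CPM) were above both soft libraries of 2 days (37.8 and 30.9 CPM), and both stiff libraries of 4 days (16.4 and 13.8 CPM) were below both stiff libraries of 2 days (22.5 and 29.9 CPM). The difference between the matrices in the log2 change over time was -1.02 (SE 0.27), with an unadjusted p of 0.00555 and an adjusted p of 1.0 over all genes by edgeR, so it failed the correction. On the soft matrix the gap between the nearest libraries, 37.8 and 37.9 CPM, was small, and the change there did not pass (adjusted p = 0.404). The share of all genes whose libraries separate by day was not counted. Without replicate 1 of the stiff matrix at 4 days CSF1 was among the 4 members called for this difference, together with 20.9% of all genes, and without replicate 2 no member was called by edgeR, with 4 at an unadjusted p below 0.05.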

How the results depend on the processing

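With 2 libraries per condition the calls depended on the fit more than the directions did. Over all alternatives, 795 values for single members kept their direction and side of the threshold, 77 lost a call, 40 gained one and 16 changed direction. Members called at 2 days (0) became 1 with DESeq2 and 6 with a fit of that day's libraries alone, and 0 to 3 without 1 library. At 4 days (1) there were 0 without scaling factors, 0 in the separate fit, 0 with a replicate block, and 0 with limma on FPKM at a pseudocount of 1 or 0.1 and without a filter, and 0 to 5 without 1 library. Without scaling factors the median of all genes at 4 days moved from 0.02 to -0.09. On average (3) there were 0 with the replicate block, 1 with each of the limma fits (IL6), and 0 to 6 without 1 library. Over time there were 5 on the soft matrix (against 3) and 0 on the stiff matrix (against 5) in separate fits, and 0 to 5 and 0 to 7 without 1 library. For the interaction (0) there were 0 to 4, the 4 in a fit that called 20.9% of all genes. A fit without 1 library assumes that the lone library left in its condition varies like the other groups.

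Counts of all genes called also moved. At 2 days they were 0 by edgeR and 28 by DESeq2 (6 higher, 22 lower), and 314 higher and 353 lower in the separate fit. At 4 days edgeR called 5 higher and 31 lower, DESeq2 50 and 116, and the fit without replicate 1 of the stiff matrix at 4 days 2477 and 2199. On average edgeR called 11 and 51 and DESeq2 73 and 145, and the fits without replicate 1 or 2 of the stiff matrix at 4 days 19.8% and 6.83% of all genes. DESeq2 called 4 members on average (IL6, IL1A, IL1B and CSF1), beside 1.49% of all genes. Over time it called 2 on the soft matrix (IL1A and IL15), beside 29.6% of all genes, and 6 on the stiff matrix, beside 29.8%. In the separate fits over time the 5 members on the soft matrix stood beside 50.7% of all genes. The 0 members on the stiff matrix stood beside 0% of all genes, so neither shift was particular to the members. Without 1 library, the highest member counts over time also came from fits that called a larger share of all genes than the main fit.

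Values that changed direction included some not near 0, such as IL33 at 2 days (-0.69), IL32 over time on the stiff matrix (0.51) and the IL1A interaction (0.40). Without 1 library, the stiffness effect ranged from -2.12 to 0.0085 for IL33 at 2 days and from -0.79 to 0.25 for IL32 at 4 days. The change over time ranged from -0.20 to 0.16 for IL1B, -0.90 to 0.39 for IL33 and -0.079 to 0.29 for IL32 on the soft matrix, and from -0.84 to 0.043 for LIF, -0.64 to 0.023 for IL11 and -0.11 to 0.94 for IL32 on the stiff matrix. The interaction ranged from -0.21 to 0.68 for LIF, -0.093 to 0.56 for IL11, -0.043 to 1.03 for IL1A and -0.21 to 0.82 for IL32, and for IL1A it was -0.21 in both limma fits at a pseudocount of 1. The causes were not tested.

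Same-numbered libraries did not deviate together: the correlations of their deviations were at most 0.08. Between soft and stiff matrix at 4 days the correlation was -0.49, so there same-numbered libraries tended to deviate in opposite directions. The cause was not tested. The fit with a replicate block called 0 members at 2 days, 0 at 4 days, 0 on average, 2 and 4 over time on soft and stiff matrix, and 0 for the interaction. Of all genes that fit called 0% at 2 days, 0.0961% at 4 days and 0.199% on average. Over time it called 18% on the soft and 17.5% on the stiff matrix, and 0% for the interaction. For CSF2 the alternatives were chosen after seeing the data: the average was called in 9 of 9 settings, beside the fits without 1 library.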

Other observations

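MIF, a cytokine that many cell types express, was listed at 0 counts in all 8 libraries. On GRCh37 its exons share 687 bases with MIF-AS1 on the opposite strand and 357 bases with ENSG00000251357 on the same strand, neither of which is listed in the table. The cause of the value of 0 was not tested, and the level of MIF in these cells is not given by it. TNF had 0 to 4 counts per library and IL12B had 2 and 4 counts on the soft matrix at 2 days and 0 in the other 6 libraries, so neither was tested. EBI3, a subunit of IL-27 and IL-35, had 9 and 6 counts on the soft and 0 and 1 on the stiff matrix at 2 days, and 4 and 9 against 0 and 1 at 4 days, which was too few to test.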
